A study of Danio rerio with 6 samples.

Results

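The genes described here belong to the interferon response, to antigen presentation and to the proteasome of the adult zebrafish. They were chosen by symbol: MHC class I and class II genes, b2m, tap1 and tap2, tapasin, cd74, subunits and activators of the proteasome (psma, psmb and psme), irf, stat, jak, socs, isg, mx and rsad2. The rule used symbols and no measured value, but it was set with earlier results of these data known. Of 8793 genes that the array names with a probe set of 1 symbol, 60 matched, and where a gene had several probe sets, the brightest on average was read. The symbol rule also took in 5 genes that only begin like their families, the irf2-binding proteins irf2bp1, irf2bp2a, irf2bp2b and irf2bpl and the psme3-interacting psme3ip1. These are described apart.

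RNA was measured on 6 Affymetrix 3' expression arrays in 3 groups of 2, each array carrying total RNA pooled from 5 adult fish of the line Tg(jam1a:EGFP). All groups carried this reporter, which places EGFP under the promoter of the tight junction gene jam1a, now named f11r.1, and lights up renal collecting ducts. One group held collecting ducts picked under fluorescence from fish without irradiation. The second held ducts from fish given 25 Gy of X-rays, and the third held whole kidney of fish for which no irradiation is given. The time between irradiation and dissection, and the age beyond adult, are not given in the sources used here. Pools were described as independent, so the p-values reflect the spread between pools of fish and say nothing of the spread between single fish. In these bulk samples, fewer cells of a type and less RNA per cell cannot be told apart.

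Interferons are secreted when a cell senses viral nucleic acid or related danger signals. Their receptors activate Janus kinases (JAK), which phosphorylate STAT proteins, and STAT proteins switch on antiviral genes such as isg15 and mx together with the machinery of antigen presentation. SOCS proteins are induced by the same pathway and shut the kinases off. The proteasome cuts proteins into peptides, interferon exchanges its catalytic beta subunits for inducible ones (psmb8, psmb9 and psmb10 in mammals), and the transporter TAP and the chaperone tapasin load the peptides on MHC class I with b2m. MHC class II, assisted by the invariant chain cd74, presents peptides taken up from outside and marks professional antigen-presenting cells. In fish the whole kidney is also the main site of blood formation, so many immune cells are present there.

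Values are log2 RMA values (background-corrected, quantile-normalised and summarised per probe set). The array medians lay between 5.81 and 5.87, and a level under them is not shown to be above background. The mean of 7 of the 60 genes lay under 5.81 in every group. Changes are log2 fold changes ± SE from limma, and a change passed the test when its Benjamini-Hochberg adjusted p over all 15502 probe sets was under 0.05. A probe set's level cannot be set against another's, so levels are compared between groups within a gene. Of 16 measured genes marking duct epithelium, 8 were higher in ducts than in whole kidney and 12 were higher in irradiated ducts than in whole kidney, and 0 were lower in either. Of all genes 4.11% and 6.40% passed as higher in these comparisons. The reporter gene f11r.1 stood at 11.54 and 11.39 in ducts, 11.59 and 11.56 in irradiated ducts, and 10.36 and 10.20 in whole kidney. Of 19 leukocyte and blood cell markers, 4 were lower in irradiated than in unirradiated ducts, 4 were lower in ducts than in kidney and 12 were lower in irradiated ducts than in kidney, with 0 higher. Of all genes 0.0682%, 3.32% and 5.16% passed as lower in these comparisons. A further 15 genes of red blood cells, muscle, matrix, vessels and tubule were measured. In ducts against kidney 4 passed as higher, the muscle genes tagln (3.99), acta2 (3.67), acta1a (3.07) and tnnt3b (2.90), and 2 as lower. In irradiated ducts against kidney 5 passed as higher, with col1a1a and col1a2 of the matrix among them, and 2 as lower. The part of these cells in the duct values was not tested. The spread between replicates was larger in kidney, with a root mean square SD of 0.465, than in ducts (0.246) and irradiated ducts (0.25). RMA sets the arrays to a common distribution. When the arrays were centred on the spiked hybridisation controls instead, the median of all probe sets moved by 1.35 for irradiated against unirradiated ducts, by -1.53 for ducts against kidney and by -0.18 for irradiated ducts against kidney. Under that centring 60, 4 and 38 of the 60 genes were positive in these comparisons, where 38, 43 and 45 were under RMA. Of all 8793 genes, 8721, 303 and 2428 were positive under that centring, and 4227, 4070 and 3719 under RMA. All directions below are therefore relative to the typical gene of an array, and those of ducts against kidney turn for most genes under that centring. The controls averaged 10.86 and 11.37 in ducts, 9.7 and 9.85 in irradiated ducts, and 8.73 and 10.45 in kidney. They thus differed between replicates too, most in kidney, and that centring is itself an uncertain reference.

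Across the 60 genes, 1 rose in irradiated against unirradiated ducts, the exonuclease gene isg20, and 0 fell. At an unadjusted p under 0.05 there were 6 higher and 0 lower, against 7.03% and 5.89% of all genes. Among all genes 0.0682% passed as higher and 0.0682% as lower. Unirradiated ducts exceeded whole kidney in 1 gene, socs1a, and 0 genes were lower, where 4.11% of all genes passed as higher and 3.32% as lower. Here 14 genes were higher and 3 lower at an unadjusted p under 0.05, against 11.7% and 16.2% of all genes. Irradiated ducts against whole kidney gave 6 higher genes, isg20, irf1b, irf9, isg15, irf7 and mhc1uda, and 1 lower gene, psmb7. In that comparison 6.40% of all genes passed as higher and 5.16% as lower. With so few calls, no difference from the background is read from these counts. Without either irradiated array, 0 of these 7 genes passed. The median change of the 60 genes was 0.10, 0.28 and 0.33 in the 3 comparisons in this order, where that of all genes was -0.02, -0.04 and -0.07. The 3 comparisons share samples and are not independent of each other.

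**Figure D1:**
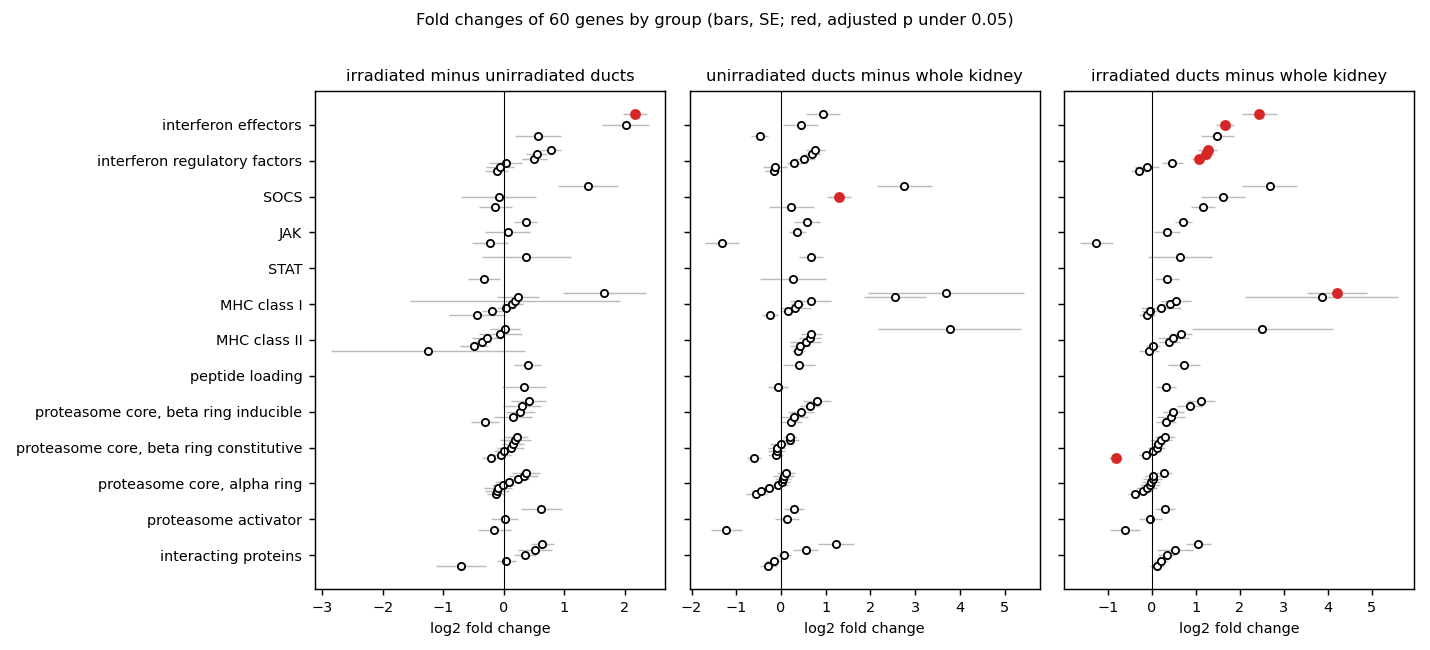
Log2 fold change of each of the 60 genes (points, horizontal axis) with its SE (bars), by functional group (vertical axis) and comparison (panels). Red points passed the test, with 1 in the left panel, 1 in the middle panel and 7 in the right panel, and the lower one of these is psmb7. The 15 genes of the alpha and constitutive beta rings have medians of 0.08, -0.07 and 0.02.

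Separation of the replicates was counted as well. In irradiated against unirradiated ducts, both arrays of one group lay above both of the other in 18 genes that were higher and 12 that were lower, with 26.1% and 29.4% of all genes doing so. In ducts against kidney the counts were 25 and 9 of the 60, beside 25.5% and 32.0% of all genes. In irradiated ducts against kidney they were 25 and 5, beside 23.2% and 34.2% of all genes. Group means ordered as kidney, ducts and irradiated ducts, from low to high, occurred in 24 of the 60 genes (40.0%) and in 1533 of all genes (17.4%). Without any overlap between arrays, 9 genes kept that order: irf1b, irf7, irf9, jak2b, mhc1uda, mhc1ufa, psmb8a, psmb13a and irf2bpl. This was 15% of the list and 5.47% of all genes. The 16 markers of duct epithelium also had 14 positive changes in irradiated against unirradiated ducts, with a median of 0.33 and 9 of them without overlap, and their part in the order was not tested.

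Among the 60 genes the highest fold changes between irradiated and unirradiated ducts were those of isg20 and isg15, and that of isg20 passed the test. Isg20 encodes an exonuclease that degrades RNA and is induced by interferon in mammals. Its values were 5.66 and 5.90 in ducts, 8.05 and 7.83 in irradiated ducts, and 6.44 and 6.09 in whole kidney. The irradiated arrays stood apart from all others, and unirradiated ducts were the lowest group. Isg20 rose by 2.16 ± 0.20 against unirradiated ducts, a 4.46-fold change (adjusted p = 0.0378), and was 1.67 ± 0.20 higher than in kidney, 3.19-fold (adjusted p = 0.00858). Its value in unirradiated ducts lies at the array median, so the size of that fold change is uncertain. Leaving out any 1 duct or irradiated array raised the adjusted p of the first comparison to between 0.161 and 0.4, with a change of 2.04 to 2.28.

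Isg15, the ubiquitin-like modifier attached to proteins during infection, was at 8.96 and 8.45 in ducts, 10.62 and 10.81 in irradiated ducts, and 7.71 and 8.82 in kidney. Ducts and kidney overlapped, and the irradiated arrays were above both. The difference of 2.01 ± 0.39 between irradiated and unirradiated ducts, a 4.02-fold ratio, did not pass (adjusted p = 0.156). In a fit of the 2 compared groups alone it did (adjusted p = 0.0259), but not with any duct or irradiated array left out (adjusted p from 0.291 to 0.772). Against kidney isg15 was higher by 2.45 ± 0.39 (adjusted p = 0.018). The GTPase gene mxa, a classical antiviral effector, was at 5.49 and 4.87 in ducts, 5.23 and 6.24 in irradiated ducts, and 4.17 and 4.32 in kidney. Irradiated and unirradiated ducts overlapped, kidney was below both, and 5 of the 6 arrays, all but irradiated replicate 2, lie below the array medians. Mxa passed in no comparison, with adjusted p from 0.0639 upwards.

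Of the 6 interferon regulatory factors, irf1b, irf7 and irf9 kept the order of kidney, ducts and irradiated ducts without overlap, and irf1a, irf2a and irf5 did not. Irf9, which takes part in the response to type I interferon in mammals, was at 6.21 and 6.05 in ducts, 6.81 and 7.01 in irradiated ducts, and 5.77 and 5.89 in kidney. It was 1.08 ± 0.17 higher in irradiated ducts than in kidney (adjusted p = 0.0164), and the 0.78 ± 0.17 against unirradiated ducts did not pass (adjusted p = 0.182). Irf7, which drives interferon production in mammals, was at 8.94 and 8.58 in ducts, at 9.26 in both irradiated arrays, and at 7.81 and 8.17 in kidney. Its irradiated ducts exceeded kidney by 1.27 ± 0.21 (adjusted p = 0.0194).

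Irf1b, a copy of the activator IRF1, was at 9.92 and 10.06 in ducts, 10.41 and 10.64 in irradiated ducts, and 9.21 and 9.37 in kidney. The 3 groups were separate, and irradiated ducts exceeded kidney by 1.24 ± 0.17 (adjusted p = 0.0124). The steps between neighbouring groups, 0.54 ± 0.17 from ducts to irradiated ducts and 0.70 ± 0.17 from kidney to ducts, did not pass on their own (adjusted p = 0.285 and 0.0671). Its paralogue irf1a lay near the lower end of the scale, between 3.69 and 4.48 on all arrays, with overlapping duct groups. Irf2a, a relative of a mammalian repressor of the same sites, was at 5.01 and 5.12 in irradiated ducts and 5.54 and 5.14 in kidney, and its largest difference was -0.28 ± 0.19. Irf5 was between 5.86 and 6.53 with no separation of any groups. Of these factors, 3 of 6 passed as higher in irradiated ducts against kidney, beside 6.40% of all genes. In the other comparisons 0 of 6 passed in either direction. Of all genes, 0.0682% passed in each direction in irradiated against unirradiated ducts. In ducts against kidney 4.11% of all genes passed as higher and 3.32% as lower. Under centring on the hybridisation controls, irf1b, irf7 and irf9 lost their call against kidney.

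**Figure D2:**
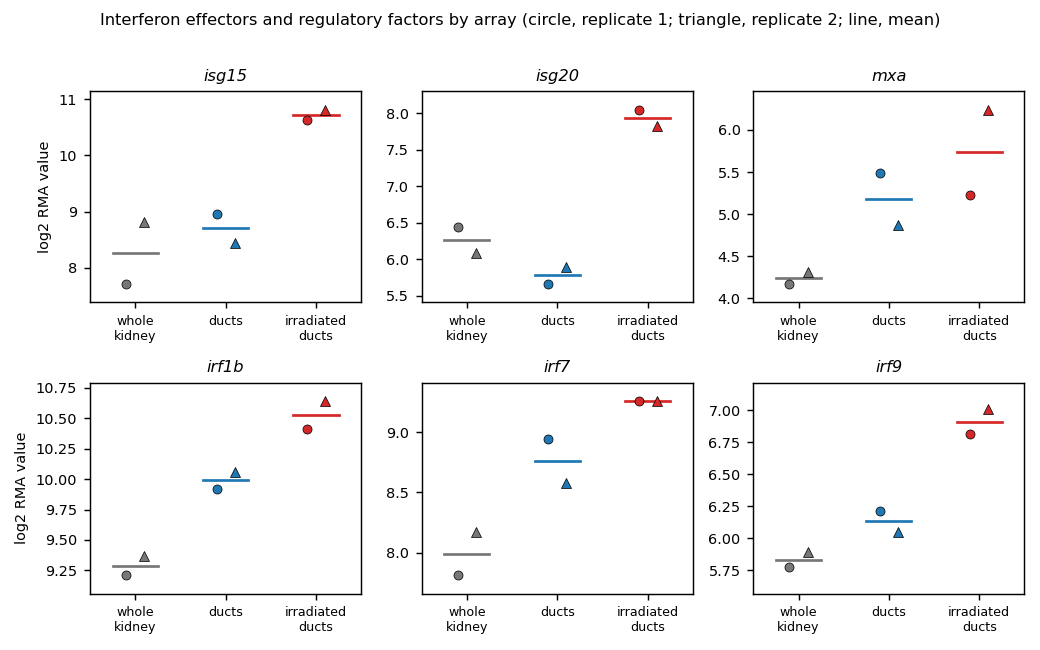
Log2 RMA values (vertical axes, with a range of their own in each panel) of 3 effectors and 3 regulatory factors in whole kidney, ducts and irradiated ducts; circles are replicate 1, triangles replicate 2 and lines group means. In isg15, isg20, irf1b, irf7 and irf9 both irradiated arrays lie above the other 4, while in mxa 1 irradiated array lies within the unirradiated ducts.

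Other interferon and sensor genes from a separate list of symbols were examined beside these. Of 14 measured, 0 passed in irradiated against unirradiated ducts, beside 0.0682% of all genes as higher and 0.0682% as lower. In ducts against kidney 0 passed, beside 4.11% of all genes as higher and 3.32% as lower. In irradiated ducts against kidney 3 passed as higher, beside 6.40% of all genes. These were the interferon-inducible ifi27.2 (3.18 ± 0.44, adjusted p = 0.0124) and ifi35 (1.59 ± 0.25, adjusted p = 0.0176), and mavs, the mitochondrial adaptor of RNA sensors (0.96 ± 0.20, adjusted p = 0.0358). Ifi27.2 was at 10.19 and 9.68 in ducts, 10.83 and 11.33 in irradiated ducts, and 7.29 and 8.51 in kidney. All groups were apart in ifi27.2. In ducts against kidney, ifi27.2 (2.04 ± 0.44, adjusted p = 0.0504) and mavs (0.92 ± 0.20, adjusted p = 0.05) lay at the threshold without passing. Mavs was 0.04 ± 0.20 apart between irradiated and unirradiated ducts, so its values separated ducts of both kinds from kidney. The median of the list was 0.24, 0.26 and 0.34 in the 3 comparisons.

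Of the 3 SOCS genes, 1 passed as higher in ducts against kidney, beside 4.11% of all genes, and 0 passed in the other comparisons. Socs1a, an inhibitor that binds JAK kinases, was at 8.32 and 8.94 in ducts, 8.72 and 8.26 in irradiated ducts, and 7.32 and 7.33 in kidney. Both kinds of duct lay above kidney and overlapped each other. Ducts exceeded kidney by 1.30 ± 0.27, 2.46-fold (adjusted p = 0.0466), and irradiated ducts by 1.16 ± 0.27 (adjusted p = 0.0505). A second probe set of socs1a gave 1.05 ± 0.24 (adjusted p = 0.0611) and 1.27 ± 0.24 (adjusted p = 0.0305), so the size was alike while the comparison that passed was not the same. The call held in 4 of 13 alternative settings and was lost without either duct or either irradiated array, or without kidney replicate 1 (adjusted p from 0.0661 to 0.205), and centring on the hybridisation controls turned its sign (-0.23).

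Socs3a, an inhibitor of interleukin-6 type signals, was at 12.07 and 11.93 in ducts, 12.25 and 11.58 in irradiated ducts, and 10.21 and 8.28 in kidney. All 4 duct arrays lay above both kidney arrays, which themselves were 1.93 apart. The difference of 2.76 ± 0.62 between ducts and kidney did not pass (adjusted p = 0.0552). Without kidney replicate 1 or 2 it did, at 3.73 and 1.79 (adjusted p = 0.00462 and 0.0145), but not without duct replicate 1 or 2 (adjusted p = 0.226 and 0.232). Its paralogue socs3b was at 7.61 and 8.16 in ducts, 9.84 and 8.72 in irradiated ducts, and 8.18 and 7.13 in kidney. Only the irradiated ducts stood apart in socs3b, by 1.39 ± 0.50 over unirradiated ducts (adjusted p = 0.315) and by 1.62 ± 0.50 over kidney (adjusted p = 0.104). In the means of these paralogues, therefore, socs3a separated ducts from kidney and socs3b separated irradiated ducts from both, but neither passed and their difference was not tested.

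Of the kinases, jak2a ran against jak1 and jak2b in ducts and kidney. Jak2a was at 7.56 and 7.91 in ducts, 8.26 and 7.33 in irradiated ducts, and 9.35 and 8.76 in kidney. Kidney was above all duct arrays, with differences of -1.32 ± 0.37 for ducts (adjusted p = 0.0896) and -1.26 ± 0.37 for irradiated ducts (adjusted p = 0.0923). In zebrafish jak2a acts in the development of red blood cells, which form in the kidney. The erythroid factor gene gata1a was at 5.76 and 6.23 in ducts, 6.78 and 6.02 in irradiated ducts, and 8.65 and 7.38 in kidney. It did not pass for ducts against kidney (adjusted p = 0.0626). Among red blood cell genes, hbba2 (-1.63 ± 0.28, adjusted p = 0.0307) and cahz (-2.38 ± 0.42, adjusted p = 0.032) passed as lower in ducts than in kidney. Alas2, slc4a1a and hbaa1 were lower there without passing (adjusted p = 0.082, 0.218 and 0.0902). In irradiated against unirradiated ducts hbba2 stood at -1.96 ± 0.28 (adjusted p = 0.103), alas2 at 0.93 ± 0.54 and slc4a1a at -0.82 ± 0.98. Cahz and hbaa1 stood there at 0.09 ± 0.42 and 0.24 ± 0.23. Jak2a stood at 0.06 ± 0.37 in that comparison. The part of red blood cells in the jak2a values was not tested. Jak2b ran the other way, at 8.72 and 8.37 in ducts, 8.95 and 8.85 in irradiated ducts, and 8.30 and 8.06 in kidney. Its 3 groups did not overlap, and irradiated ducts exceeded kidney by 0.72 ± 0.19 (adjusted p = 0.0747). Jak1, the kinase shared by interferon receptors, was at 10.17 and 10.41 in ducts, 10.08 and 10.04 in irradiated ducts, and 9.30 and 10.12 in kidney, and irradiated ducts were below unirradiated ducts by 0.23 ± 0.29 on the log2 scale.

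Of the transcription factors of the STAT family, stat3 and stat5a were measured here under these rules. Stat3, which answers interleukin-6 type cytokines, was at 6.21 and 5.78 in ducts, 6.16 and 6.57 in irradiated ducts, and 4.54 and 6.92 in kidney. The kidney arrays of stat3 were 2.38 apart and enclosed all duct values. Stat5a was at 6.51 and 6.55 in ducts, 6.50 and 5.91 in irradiated ducts, and 5.59 and 6.11 in kidney, and unirradiated ducts were above kidney by 0.68 ± 0.27 (adjusted p = 0.179). Of 12 other receptors and regulators of cytokine signals, 0 passed in the first 2 comparisons. In irradiated ducts against kidney 1 passed as lower, beside 5.16% of all genes. This was ptpn6, a phosphatase of blood cells, at 8.65 and 8.35 in ducts, 6.88 and 7.38 in irradiated ducts, and 8.94 and 9.20 in kidney (-1.93 ± 0.24, adjusted p = 0.00877). The leukocyte gene ptprc was at 8.41 and 8.31 in ducts and 6.34 and 6.67 in irradiated ducts, and averaged 8.94 in kidney, and the part of leukocytes in the ptpn6 value was not tested.

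**Figure D3:**
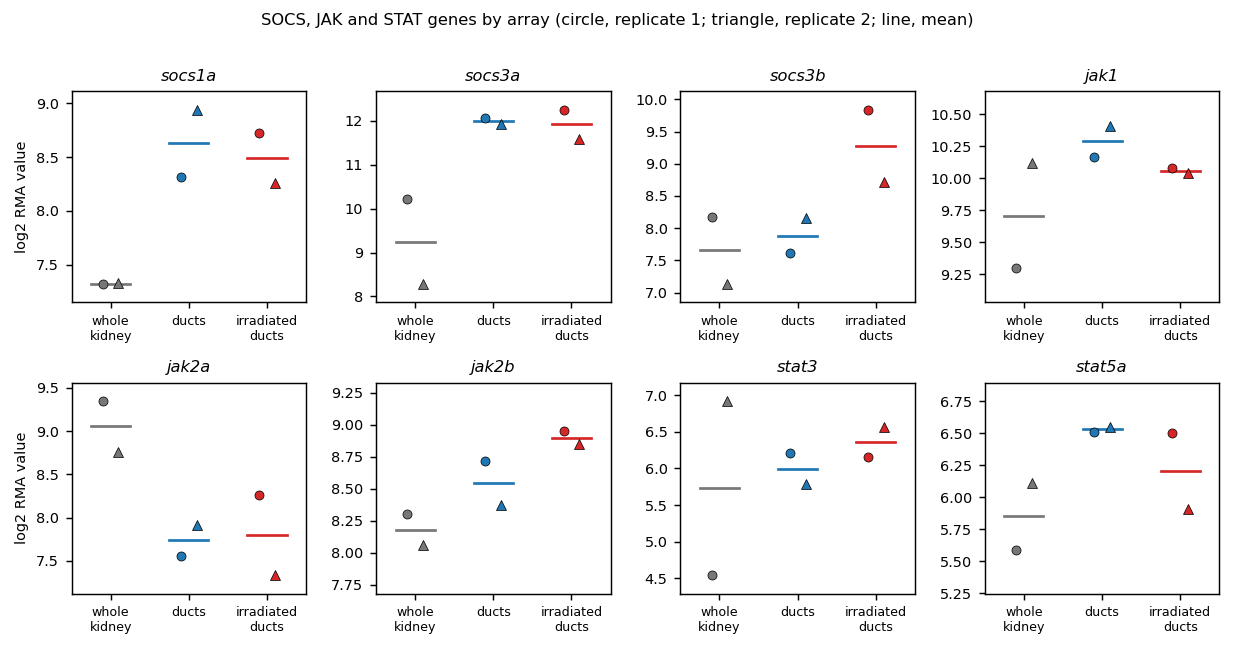
Log2 RMA values (vertical axes, with a range of their own in each panel) of the SOCS, JAK and STAT genes in whole kidney, ducts and irradiated ducts; circles are replicate 1, triangles replicate 2 and lines group means. Socs1a and socs3a lie higher in all duct arrays than in kidney, jak2a lies lower, and the kidney values of stat3 span 4.54 to 6.92.

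In antigen presentation, 1 of the 13 MHC class I and class II genes with b2m and cd74 passed in 1 comparison. This gene, mhc1uda, was higher in irradiated ducts than in kidney, where 6.40% of all genes passed as higher. Mhc1uda, a classical class I gene of the U lineage, was at 8.29 and 6.68 in ducts, 8.82 and 9.47 in irradiated ducts, and 5.70 and 4.18 in kidney. The 3 groups did not overlap, although the replicates were 1.61 apart in ducts and 1.52 apart in kidney. Irradiated ducts exceeded kidney by 4.21 ± 0.69 (adjusted p = 0.0198), a size that is uncertain because the kidney values lie under the array medians. The difference of 1.66 ± 0.69 from unirradiated ducts did not pass (adjusted p = 0.359), nor did that of 2.55 ± 0.69 between ducts and kidney (adjusted p = 0.0844). A second probe set of the gene read 4.05 and 3.60 in ducts, 4.57 and 4.37 in irradiated ducts, and 2.88 and 2.83 in kidney, in the same order of groups. There ducts exceeded kidney by 0.96 ± 0.20 (adjusted p = 0.049) and irradiated ducts by 1.61 ± 0.20 (adjusted p = 0.00967), at levels under the array medians throughout.

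Fish carry different sets of class I genes in different haplotypes, and probes for one gene may bind or miss alleles and close relatives. Mhc1ufa was at 10.92 and 10.78 in ducts, 10.98 and 11.08 in irradiated ducts, and at 10.12 and 4.19 in kidney. The kidney replicates thus lay 5.92 apart, a gap reached by 2 of 8793 genes in that group. Its difference of 3.69 ± 1.74 between ducts and kidney did not pass (adjusted p = 0.241), and kidney replicate 1 alone was near the duct values. Mhc1uka was at 7.25 and 6.74 in ducts, 6.57 and 6.52 in irradiated ducts, and 5.63 and 7.04 in kidney, so the irradiated ducts were below the unirradiated by 0.45 ± 0.46 on the log2 scale. Mhc1zba, of the Z lineage, was at 10.15 and 10.44, 10.66 and 10.41, and 9.48 and 10.49 in ducts, irradiated ducts and kidney, with overlap between all groups. Mhc1laa and mhc1zca stayed under the array medians on every array, between 2.85 and 4.86. Whether the genotypes of the pooled fish entered these values was not tested.

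The gene of the MHC class I light chain, b2m, averaged 11.94 in ducts, with the arrays 0.13 apart. It was at 11.97 in both irradiated arrays and at 11.60 and 11.52 in kidney. Ducts of both kinds lay above kidney, by 0.37 ± 0.15 (adjusted p = 0.185) and 0.41 ± 0.15 (adjusted p = 0.159), and irradiation made a difference of 0.03 ± 0.15. The peptide transporter subunit gene tap2a was at 6.32 and 5.30 in ducts, 5.93 and 6.33 in irradiated ducts, and 5.25 and 5.56 in kidney. Its duct replicates were 1.02 apart and overlapped both other groups. The tapasin gene tapbp.1 was at 8.54 and 8.11 in ducts, 8.55 and 8.88 in irradiated ducts, and 8.51 and 8.26 in kidney, a difference of 0.39 ± 0.23 between irradiated and unirradiated ducts. Neither loading gene passed in any comparison.

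Of 6 class II genes, 5 were lower in irradiated than in unirradiated ducts (median -0.32) and 4 of these without overlap, beside 29.4% of all genes, while all 6 were higher in ducts than in kidney (median 0.60). None of these differences passed. At an unadjusted p under 0.05 there were 0 genes in the first comparison and 3 higher in the second. At that p, 5.89% of all genes were lower in the first comparison and 11.7% higher in the second. Of all 8793 genes, 4566 were lower in the first comparison and 4070 higher in the second. Under centring on the hybridisation controls, 6 of the 6 were positive in the first comparison and 1 in the second. The invariant chain cd74a was at 13.15 and 13.00 in ducts, 12.68 and 12.91 in irradiated ducts, and 12.11 and 12.69 in kidney. It was 0.68 ± 0.24 higher in ducts than in kidney (adjusted p = 0.141) and stood at -0.28 ± 0.24 in irradiated against unirradiated ducts. Its copy cd74b was at 12.47 and 12.17, 12.13 and 12.55, and 11.43 and 11.92 in ducts, irradiated ducts and kidney, so the duct groups overlapped and kidney was below both.

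The class II alpha chain gene mhc2daa was at 9.12 and 8.49 in ducts, 6.65 and 8.45 in irradiated ducts, and 2.49 and 7.58 in kidney. Its kidney replicates were 5.09 apart, a gap that 4 of 8793 genes reached, and its irradiated replicates were 1.80 apart. The differences of -1.26 ± 1.60 and 3.77 ± 1.60 in the first 2 comparisons therefore had wide errors. The beta chain gene mhc2dcb, at 4.99 and 4.85 in ducts, 4.53 and 4.58 in irradiated ducts, and 4.47 and 4.58 in kidney, lay under the array medians, as did mhc2dhb, between 2.57 and 3.45. Another beta chain gene, mhc2d4b, was at 6.48 and 6.29, 6.12 and 6.54, and 6.34 and 5.34 in the same groups, with overlap throughout.

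Class II molecules are carried by leukocytes, so their markers are given beside these values. The list holds 19 leukocyte and blood cell markers, among them the erythroid factor gene gata1a. Of these, 16 were lower without overlap in irradiated than in unirradiated ducts (median -1.34), beside 29.4% of all genes. In ducts against kidney 13 were lower without overlap (median -0.75), beside 32.0% of all genes. The log2 of their summed signal was 13.50 and 13.42 in ducts, 12.48 and 12.91 in irradiated ducts, and 14.37 and 14.46 in kidney. The brightest probe sets weigh most in this sum, and they were not the same in all groups. The highest mean was that of lyz in ducts (12.10) and kidney (13.17) and that of mpx in irradiated ducts (11.80). The sum is therefore no single measure of leukocyte content. In each array, 4 to 7 of the 19 markers lay under the lowest array median. Not all markers followed this sum. The means of pax5, trac and runx3 were higher in ducts than in kidney by 0.28, 0.27 and 0.21, without passing. In irradiated against unirradiated ducts 3 of the 19 markers had higher means, mpx, marco and gata1a. Mpx, a neutrophil gene, averaged 10.33 in ducts, 11.80 in irradiated ducts and 10.34 in kidney. Marco and gata1a were higher in irradiated than in unirradiated ducts by 0.17 and 0.40 with overlap. None of these differences passed. The part of leukocytes in the class II values was not tested. Of 15 other genes of antigen presentation, 0 passed in irradiated against unirradiated ducts, and cd9b, a tetraspanin of membrane domains, was higher in ducts than in kidney (1.43 ± 0.18, adjusted p = 0.0157). There 4.11% of all genes passed as higher. Irradiated ducts against kidney gave 2 higher, cd9b (1.85 ± 0.18, adjusted p = 0.00538) and the cathepsin gene ctss2.2 (0.71 ± 0.16, adjusted p = 0.0473), and 1 lower, the cathepsin gene ctss1 (-1.97 ± 0.33, adjusted p = 0.0203). In that comparison 6.40% of all genes passed as higher and 5.16% as lower. Cathepsin S trims the invariant chain in mammals. All group means of ctss1 lay under the array medians, and a further copy, ctss2.1, differed by 0.03 ± 0.26 (adjusted p = 0.967).

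**Figure D4:**
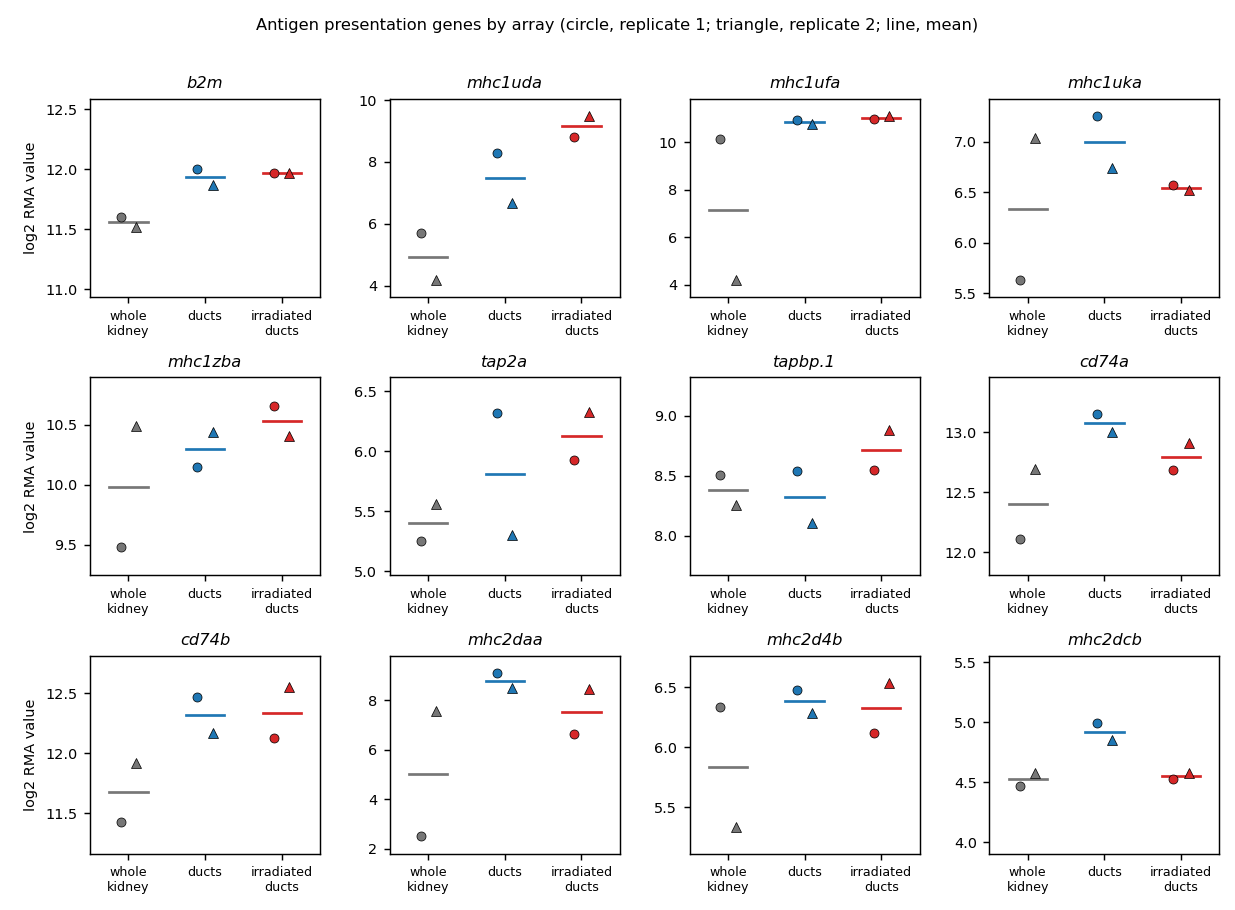
Log2 RMA values (vertical axes, with a range of their own in each panel) of 12 antigen presentation genes in whole kidney, ducts and irradiated ducts; circles are replicate 1, triangles replicate 2 and lines group means. Mhc1uda is lowest in kidney and highest in irradiated ducts, b2m lies within 0.13 in each group, and the kidney replicates of mhc1ufa and mhc2daa are 5.92 and 5.09 apart.

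Of the 23 proteasome genes, 1 passed in 1 comparison, psmb7. It was lower in irradiated ducts than in kidney, where 5.16% of all genes passed as lower. The alpha and constitutive beta rings form the barrel of the particle. The 15 genes placed in these rings by symbol, psma8 among them, had medians of 0.08, -0.07 and 0.02 in the 3 comparisons. Their changes with irradiation lay between -0.22 and 0.36, and none passed in irradiated against unirradiated ducts or in ducts against kidney. Psma4, for example, was at 10.11 and 10.16 in ducts, 9.95 and 10.31 in irradiated ducts, and 10.07 and 10.16 in kidney. Psmb3 was at 10.16 and 9.99, 10.15 and 10.42, and 10.31 and 10.02 in the same groups. In both genes all groups overlapped. Psma6a was the alpha subunit gene in which both kidney arrays lay above all duct arrays, at 8.63 and 8.66 in ducts, 8.43 and 8.61 in irradiated ducts, and 8.92 and 8.88 in kidney (-0.38 ± 0.15 for irradiated ducts, adjusted p = 0.184). Psma1 was at 9.72 and 9.26 in ducts, 9.67 and 9.97 in irradiated ducts, and 9.74 and 10.12 in kidney, and it was lower in ducts than in kidney by 0.44 ± 0.24 on the log2 scale without passing (adjusted p = 0.305).

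Psmb7, which carries the trypsin-like activity of the constitutive particle, was the gene of the 60 that passed as lower in irradiated ducts than in kidney. It was at 8.57 and 8.61 in ducts, 8.35 and 8.40 in irradiated ducts, and 9.16 and 9.22 in kidney. The 3 groups did not overlap and replicates lay within 0.06 of each other. Its difference was -0.82 ± 0.15 (adjusted p = 0.0247) for irradiated ducts and -0.60 ± 0.15 (adjusted p = 0.0671) for unirradiated ducts, both against kidney. Psmb7 kept its call in 6 of 13 alternative settings, and the other 6 genes that passed in irradiated ducts against kidney kept theirs in 10 or 11. Psmb10, whose mammalian product takes the place of psmb7 in the immunoproteasome, ran the other way in ducts against kidney. It was at 9.29 and 9.32 in ducts, 8.88 and 9.10 in irradiated ducts, and 8.36 and 8.96 in kidney, 0.65 ± 0.23 higher in ducts than in kidney (adjusted p = 0.153).

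All 5 inducible beta subunits had higher means in ducts than in kidney and in irradiated ducts than in kidney, with medians of 0.45 and 0.49. Of all 8793 genes, 4070 and 3719 did. In irradiated against unirradiated ducts 4 of 5 had higher means, with a median of 0.27, beside 4227 of all genes. None of the 5 passed. Under centring on the hybridisation controls, 0 of the 5 were positive in ducts against kidney and 5 in each of the other comparisons. Psmb8a, the chymotrypsin-like subunit of the immunoproteasome, was at 9.27 and 9.13 in ducts, 9.41 and 9.82 in irradiated ducts, and 8.37 and 9.13 in kidney. Duct replicate 2 and kidney replicate 2 were equal at the printed precision, and the irradiated arrays lay above all others. Psmb13a was at 9.33 and 9.36 in ducts, 9.52 and 9.78 in irradiated ducts, and 8.09 and 8.98 in kidney. Its 3 groups were separate, with irradiated ducts 1.12 ± 0.31 above kidney (adjusted p = 0.0785). In 4 of these 5 genes kidney replicate 1 was lower than kidney replicate 2 by 0.60 to 0.89, and psmb9a, at 8.11 in both, was the other. Kidney replicate 2 lay nearer to the duct arrays than kidney replicate 1 in these 4 genes.

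The activator psme3, a nuclear cap of the proteasome that is not induced by interferon in mammals, had the largest difference between ducts and kidney among the 23 proteasome genes. It was at 6.80 and 6.51 in ducts, 7.27 and 7.28 in irradiated ducts, and 8.38 and 7.38 in kidney. Kidney lay above irradiated ducts and these above unirradiated ducts, and the -1.22 ± 0.34 of ducts against kidney did not pass (adjusted p = 0.0863). The interferon-inducible caps psme1 and psme2 differed by 0.31 or less in all comparisons. Psme1 was at 9.85 and 9.88 in ducts, 9.66 and 10.10 in irradiated ducts, and 9.38 and 9.77 in kidney, and ducts lay above kidney without overlap. Psma8, a copy of the alpha subunit psma7 that is confined to the testis in mammals, was at 9.55 and 9.21 in ducts, 9.57 and 9.91 in irradiated ducts, and 10.14 and 9.73 in kidney.

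The 2 irradiated arrays differed in the proteasome genes as a set. Irradiated replicate 2 was above replicate 1 in all 23 of them, by a median of 0.34, with a lowest gap of 0.01 and a highest of 0.76. In kidney the same was seen in 17 of 23 (median 0.24) and in ducts in 11 of 23 (median -0.06), whereas among all genes the shares were 48.0%, 49.2% and 50.7% for irradiated ducts, kidney and ducts. Of 28 proteasome genes outside the 60, mostly of the regulatory cap, 27 were also higher in irradiated replicate 2, by a median of 0.14. Of the RNA quality values, that of actin differed between these arrays and that of GAPDH differed little. The 3' to 5' difference of the actin control was 2.88 in irradiated replicate 1 and 1.28 in replicate 2, and that of GAPDH was 1.13 and 0.97. The actin control is of acta1, and the muscle gene acta1a stood at 5.25 and 6.94 in these arrays. The part of RNA integrity and that of muscle in the actin value were not tested. The duct arrays, at 2.12 and 3.82 for actin and 1.16 and 2.52 for GAPDH, had larger differences than the kidney arrays, which lay between 0.55 and 0.91.

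Of those 28 proteasome genes, 0 passed in any comparison. At an unadjusted p under 0.05 there were 3 higher and 2 lower, 0 higher and 3 lower, and 1 higher and 2 lower in the 3 comparisons. Of all genes, 7.03% and 5.89%, 11.7% and 16.2%, and 13.4% and 16% were higher and lower at that p. With so few genes, no difference from these shares is read. Psmd1, the large scaffold of the cap, had the smallest p of them in irradiated against unirradiated ducts. It was at 7.96 and 8.16 in ducts, 8.99 and 9.09 in irradiated ducts, and 8.67 and 9.01 in kidney, with a difference of 0.98 ± 0.19 that did not pass (adjusted p = 0.153). The list had medians of 0.21, -0.14 and -0.04.

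**Figure D5:**
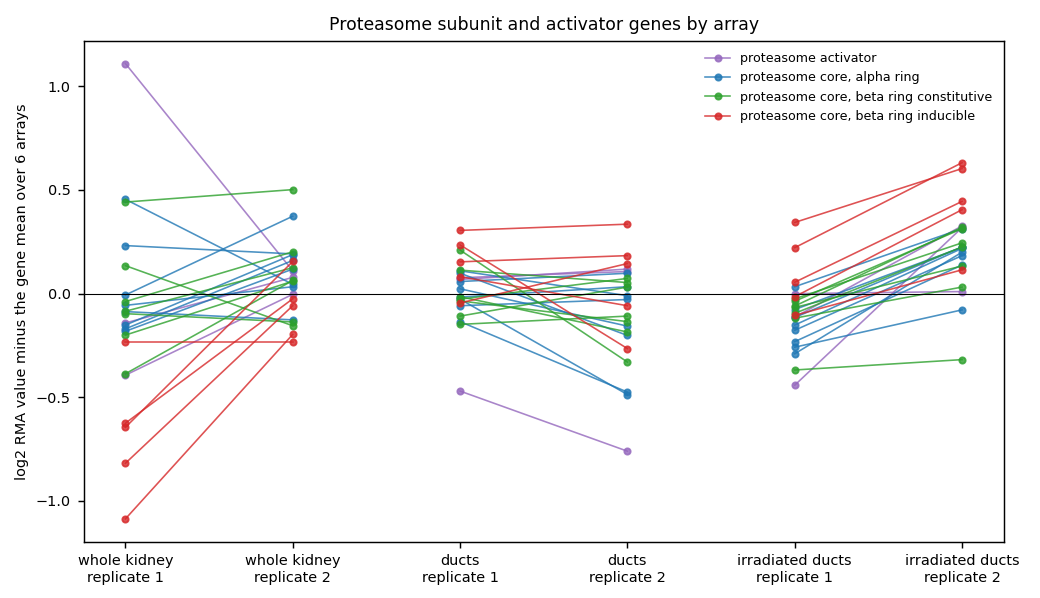
Log2 RMA value of each proteasome gene minus its mean over the 6 arrays (vertical axis) on each array (horizontal axis), with lines joining the replicates of a group and colours giving the subunit class. Irradiated replicate 2 lies above replicate 1 in all 23 genes, and 4 of 5 inducible subunits are low in kidney replicate 1.

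The irf2-binding proteins, which act as transcriptional corepressors in mammals, are no interferon genes by themselves. Irf2bp2a was at 9.03 and 9.02 in ducts, 9.84 and 9.47 in irradiated ducts, and 9.42 and 9.21 in kidney, so that unirradiated ducts were the lowest group and irradiated ducts the highest (0.63 ± 0.19 between them, adjusted p = 0.271). Irf2bpl was at 7.69 and 7.70, 8.10 and 8.31, and 7.54 and 6.75 in ducts, irradiated ducts and kidney, 1.06 ± 0.28 higher in irradiated ducts than in kidney (adjusted p = 0.0709). Irf2bp1 was 0.35 higher in irradiated than in unirradiated ducts by its brightest probe set and did not pass. Its other probe set gave 1.17 ± 0.34 in that comparison, also without passing (adjusted p = 0.261), so the size differed between them. Psme3ip1 differed by 0.11 or less in all comparisons by its brightest probe set. Its further probe sets gave 0.48, 0.34 and 0.09 in irradiated against unirradiated ducts without passing. Those giving 0.48 and 0.34 lay under the array medians on every array.

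The probe sets of irf2bp2b disagreed. The one with the higher mean read 9.57 and 9.61 in ducts, 8.98 and 8.79 in irradiated ducts, and 7.72 and 9.01 in kidney, which gave -0.71 ± 0.41 for irradiated against unirradiated ducts (adjusted p = 0.481). The other read 7.30 and 7.21, 8.45 and 8.15, and 7.41 and 7.38 in the same groups, and gave 1.05 ± 0.17 (adjusted p = 0.134). Against kidney this second probe set was higher in irradiated ducts by 0.90 ± 0.17 (adjusted p = 0.0292), and no direction is given for the gene. Of the 6 genes with several probe sets, mhc1uda and socs1a gave ducts over kidney with each, and the further probe sets of irf2bp1, mhc1uka and psme3ip1 passed in no comparison.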

How the data were processed

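The values were deposited by the authors as log2 expression values produced by RMA in affy, per the submitters' processing notes, with no versions. They were used without further transformation, and scanner files were not used here. Samples were grouped by their titles, and the dose and pool size follow the series' design text.

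The arrays hold 15617 probe sets, and 15502 were tested after 115 controls were dropped. Of these, 10795 named 1 gene, 135 several and 4572 none. Platform symbols were updated through a current zebrafish gene table, which matched 56 of the 60 members by gene ID and 2 by synonym (tap2a and mhc2dhb). For mhc1uda and mhc1ufa only the platform's symbol was available. Coordinates and sequences were not used here.

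A single limma fit (3.58.1, R 4.3.3) on all 6 arrays estimated a mean for each group, leaving 3 residual degrees of freedom beside a prior of 2.83. Tests were two-sided, with Benjamini-Hochberg adjustment over the 15502 probe sets. The fit was also run on simulated data with a common mean and spread for all groups and shifts planted in irradiated ducts alone. That run cannot show how the fit behaves with the larger spread of the kidney arrays. The number of arrays limits the precision. Values per array are given for members past the threshold, for those with the largest differences without overlap (up to 6 per comparison and direction), and for the highest and the most variable member of each subgroup. The further members mxa, irf1a, irf5, jak2b, stat3, mhc1zba, cd74b, mhc2d4b, psmb10 and irf2bpl fell outside that rule and were chosen after their values were seen. Members and gene lists were chosen with earlier results of these data known. Alternatives were a replicate block, array weights, eBayes with trend and robust, a fit on the compared groups alone, omission of probe sets with means under 6, the mean of a gene's probe sets, centring on hybridisation controls, and leaving out each array.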

Additional observations from a re-analysis of the deposited data

How the results depend on the processing

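With 2 arrays per group, both calls and directions depended on the settings. Over 34 named genes, 3 comparisons and 13 alternatives, 1314 changes were recomputed, of which 1153 kept direction and side of the threshold, 38 lost the call, 49 gained it, 73 changed sign without being past the threshold, and 1 called change turned its sign, socs1a in ducts against kidney at -0.23 under centring on the hybridisation controls. That centring gave 35 of the 73. In irradiated against unirradiated ducts, the 1 gene of the 60 past the threshold became 0 with a replicate block and with the filter on means under 6, 2 in the compared groups alone and with array weights, and 3 under control centring, and leaving out 1 array gave 0 to 2. Probe sets past the threshold went from 26 to 0 with a replicate block, 217 in the compared groups alone, 243 with array weights, 9 with the filter and 150 under control centring, with 0 to 217 when 1 array was left out. In ducts against kidney, the 1 gene became 0 in the compared groups alone and with array weights, 2 with trend and robust and with the filter, and 4 under control centring, with 0 to 17 when 1 array was left out, and without kidney replicate 2 there were 17. Probe sets went from 1126 to 422 in the compared groups alone, 615 with array weights and 2155 under control centring, with 0 to 3373 when 1 array was left out. In irradiated ducts against kidney, the 7 genes became 2 under control centring, with 0 to 18 when 1 array was left out. They were 0 without either irradiated array and 12 and 18 without kidney replicate 1 and 2. Probe sets went from 1620 to 783 in the compared groups alone and 225 under control centring, with 308 to 3183 when 1 array was left out. Correlations of replicate differences between groups were -0.098, 0.063 and -0.097. They show no strong shift shared by arrays of the same replicate number. Whether pools of the same number were handled together cannot be told from them. The cause of these shifts was not tested, except that leaving out an array leaves its group with 1 sample, assumed to vary like the others.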

Other observations

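Probe sets that name several genes were left out of the 60, and 2 of them include a gene of these families. The probe set shared by rhof and mhc1uba read 11.97 and 12.06 in ducts, 11.87 and 11.95 in irradiated ducts, and 9.66 and 12.13 in kidney, so that kidney replicate 1 lay 2.47 under replicate 2. The probe set shared by asah1b and jak1 read 8.50 and 8.25 in ducts, 8.81 and 8.97 in irradiated ducts, and 7.96 and 9.10 in kidney. In kidney, 11 of the 60 genes had replicates at least 1 apart, beside 10.3% of all genes, while in ducts and irradiated ducts 2 and 3 of the 60 did, beside 1.36% and 2.21% of all genes. Kidney replicate 2 was the low array in mhc1ufa (4.19) and kidney replicate 1 in mhc2daa (2.49), stat3 (4.54) and the rhof and mhc1uba probe set.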
